A study of Homo sapiens with 4 samples.

Results

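Human chromosome 19 carries long runs of zinc finger genes, and 203 of them were measured here in anaplastic thyroid cancer cells given dihydrotanshinone, a tanshinone-type diterpenoid of the plant Salvia miltiorrhiza. The members were every gene symbol made of ZNF, a number and at most 1 further letter on that chromosome, with a mean of at least 1 TPM, a transcript level corrected for length and library size, over the 4 libraries. They were 203 of the 253 such genes listed on chromosome 19 at any level, and 203 of 26485 gene symbols in the tables. The class was picked because it was lower in treated SW1736 cells, so its values in that cell line are given as a description and support nothing.

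SW1736 and 8505C are established lines derived from anaplastic thyroid cancer, an undifferentiated tumour of the thyroid. Each was cultured for 24 h with the vehicle DMSO or with 1.5 µM dihydrotanshinone, labelled DHT, and mRNA was sequenced from 1 library for each of the 4 combinations. The labels name no other allele, transgene or agent. With 1 library per group no difference has a replicate check and no test was possible: every fold change below compares libraries, not conditions. A fold is a difference of log2(TPM + 1), which understates the change of genes at low levels, and a gene is counted as lower or higher when it differs by at least 2-fold on that scale.

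Zinc finger proteins of the C2H2 type bind DNA through repeated small domains in which 2 cysteines and 2 histidines hold a zinc ion, and each finger reads a few bases. Most of those on chromosome 19 also carry a KRAB domain, which recruits the co-repressor TRIM28 and, through it, the histone methyltransferase SETDB1 to lay down repressive chromatin, often over transposable elements. The genes arose by tandem duplication, so neighbours resemble each other in sequence.

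In the annotated proteins of GENCODE 29, 197 of the 203 members held at least 1 C2H2 finger, with a median of 12, and ZNF91 held the most, 31. The 6 without a finger were ZNF137P, ZNF321P, ZNF542P, ZNF702P, ZNF738 and ZNF788, of which all but ZNF738 are pseudogenes or non-coding transcripts. A sequence pattern for the KRAB domain was found in 169 members and not in 34; it misses diverged copies. The linker TGEKPY or TGEKPF, which joins neighbouring fingers, was found in 165 members. A pattern for SCAN, a domain through which some zinc finger proteins pair, was found in ZNF444 and ZNF446 only. Reads of some members may have been shared with another gene: 24 overlap another annotated gene, 3 are listed at several loci and 8 have more than 30% of their 50-base words in the transcripts of other genes, 31 members in all after overlaps. Among these, ZNF320 shares 93.4% of its words and ZNF417 38.1%, ZNF417 chiefly with ZNF587.

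The promoters of 4 members are printed because they show the features that recurred across the class and because their genes took different courses in SW1736: ZNF260 had the lowest fold, ZNF91 the most fingers, ZNF57 was higher with treatment, and ZNF787 was the most abundant member. Each line holds the 250 bases before the RefSeq start in GRCh38.p14, read 5′ to 3′ on the gene's strand, and capitals mark CCGGAAG (a core bound by ETS-family factors) and CCAAT (the box bound by NF-Y) or their reverse complements CTTCCGG and ATTGG. The windows are chr19:36528272-36528521 (minus strand) for ZNF260, chr19:23395472-23395721 (minus strand) for ZNF91, chr19:2900678-2900927 (plus strand) for ZNF57 and chr19:56121296-56121545 (minus strand) for ZNF787.
ZNF260: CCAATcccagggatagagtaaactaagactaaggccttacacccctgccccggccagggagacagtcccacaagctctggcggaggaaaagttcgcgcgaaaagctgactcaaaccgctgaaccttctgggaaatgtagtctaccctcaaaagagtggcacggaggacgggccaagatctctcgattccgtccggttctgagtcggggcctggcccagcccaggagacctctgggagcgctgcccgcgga
ZNF91: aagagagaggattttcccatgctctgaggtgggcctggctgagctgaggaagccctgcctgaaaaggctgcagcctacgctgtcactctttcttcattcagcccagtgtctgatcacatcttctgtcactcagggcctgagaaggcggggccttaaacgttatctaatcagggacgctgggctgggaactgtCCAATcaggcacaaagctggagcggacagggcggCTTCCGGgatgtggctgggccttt
ZNF57: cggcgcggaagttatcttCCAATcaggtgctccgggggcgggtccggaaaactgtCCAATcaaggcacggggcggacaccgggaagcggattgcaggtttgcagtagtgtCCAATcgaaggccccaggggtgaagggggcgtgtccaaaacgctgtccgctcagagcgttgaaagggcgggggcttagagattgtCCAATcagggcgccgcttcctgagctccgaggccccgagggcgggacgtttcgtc
ZNF787: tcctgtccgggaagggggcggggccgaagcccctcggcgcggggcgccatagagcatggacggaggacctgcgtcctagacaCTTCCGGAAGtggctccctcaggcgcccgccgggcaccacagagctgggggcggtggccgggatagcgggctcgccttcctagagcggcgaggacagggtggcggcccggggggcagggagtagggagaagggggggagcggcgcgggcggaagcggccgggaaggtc
The gene models of the deposited tables begin inside these windows. The ZNF57 window holds 4 CCAAT boxes and the ZNF787 window an overlapping pair of CCGGAAG matches, 1 on each strand.

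A RefSeq promoter was matched to 180 of the 203 members, and 7 words were searched on both strands in these 250-base windows and in those of 15843 protein-coding genes. The latter were taken without a cut on level, unlike the members and the 11706 genes used elsewhere. The part of expression level in the differences below was not tested. CCGGAAG was found in 29.4% of member promoters and in 11.8% of all promoters. CCAAT was found in 51.7% of member promoters against 34.5% of all, and TATAAA, the TATA box, in 2.22% against 9.35%. GGGCGG, the GC box, was present in 64.4% against 55.8%, TGACGTCA, bound by CREB-type factors, in 2.78% against 2.29%, CACGTG, the E-box, in 4.44% against 7.80%, and the palindrome bound by NRF1 in 2.22% against 1.49%. None of these words contains another. When the 50 bases after the start were added, CCGGAAG was found in 44.4% of member promoters against 14.2% of all, a description of these letters and not of binding. In the 250-base window 24 of the 53 members with the word and 64 of the 127 without it were at least 2-fold lower in SW1736; in the longer window it was 42 of 80 and 46 of 100, so the order of the shares depended on the window.

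In SW1736 the class was lower in the treated library. Of the 203 members, 104 were at least 2-fold lower (51.2%) and 2 were higher; over the 11706 protein-coding genes that passed the same cut on level, 15.6% were lower and 2.78% higher. The median fold of the members was -1.07 on the log2 scale, with quartiles of -1.43 and -0.51, and that of all genes was -0.42. The summed level of the members was 1708 TPM with vehicle and 1039 TPM with dihydrotanshinone, and the treated library was the lowest of the 4 for 147 members. Over all genes that last count was not made, and 9113 of the 11706 had a fold below 0 in SW1736. The size of the count depends on the scale: after centring on the median gene 51 members were lower and 4 higher, against 4.07% and 4.78% of all genes. On log2(FPKM + 1), where FPKM corrects for length and depth in the other order, 49 were lower, against 6.02%. Summed FPKM was 438583 with vehicle and 511866 with dihydrotanshinone in SW1736, while TPM has the same sum in every library. The added 1 thus has another weight on each scale. With a pseudocount of 5 in place of 1 only 14 of the 203 were lower, against 5.88% of all genes, which is near the background share.

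**Figure D1:**
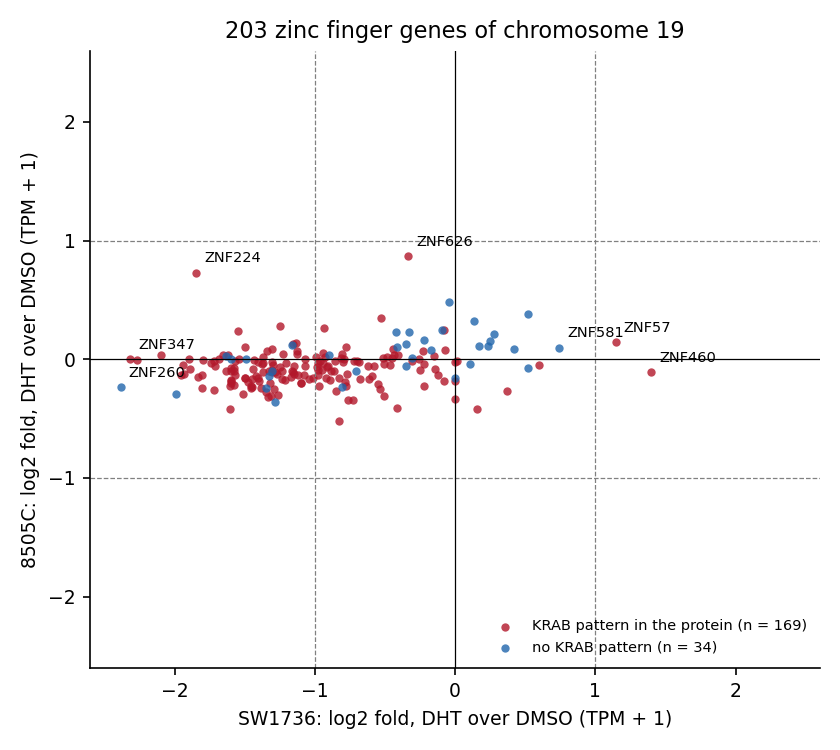
Each point is 1 member, with its log2 fold with dihydrotanshinone in SW1736 on the horizontal axis and in 8505C on the vertical axis, from log2(TPM + 1). The members spread from -2.39 to 1.40 in SW1736 and from -0.52 to 0.87 in 8505C.

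The members named from here on with the lowest folds were taken among those with a mean of at least 2 TPM. ZNF260 (chromosome 19, 36510687 to 36528346, minus strand, hg38), a protein made almost wholly of fingers without a KRAB domain, was at 11.3 TPM in SW1736 with vehicle and 1.35 TPM with dihydrotanshinone, and at 7.83 and 6.51 TPM in 8505C. Its SW1736 fold was -2.39, a ratio of TPM of 8.36, and its treated SW1736 library stands apart from the other 3. ZNF347 (53138704 to 53159069), a KRAB protein of 17 fingers, was at 12.5 and 1.72 TPM in SW1736 and at 11.7 TPM in each 8505C library. ZNF225 (44113395 to 44133102), also a KRAB protein of 17 fingers, was at 5.08 and 0.260 TPM in SW1736 and at 2.55 and 2.53 TPM in 8505C. The 8505C folds of ZNF347 and ZNF225 were 0.00 and -0.01, so these genes were lower in treated SW1736 cells beside nearly equal levels in 8505C.

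The next 5 genes were also chosen by their low SW1736 folds, so their low treated SW1736 values follow from the choice. ZNF562 was at 10.8 and 1.77 TPM in SW1736 and at 10.3 and 10.6 TPM in 8505C. ZNF788, listed as a pseudogene in the annotation, was at 15.1 and 3.04 TPM in SW1736 and at 13.4 and 10.7 TPM in 8505C. ZNF780A was at 6.49 and 0.933 TPM, against 5.45 and 4.89 TPM in 8505C. Here too the treated SW1736 library was the lowest of the 4. ZNF234, a KRAB gene next to ZNF225, was at 5.49 and 0.704 TPM in SW1736 and at 4.61 and 4.14 TPM in 8505C. ZNF417, which shares sequence with ZNF587, was at 7.13 and 1.12 TPM in SW1736 and at 4.40 and 4.23 TPM in 8505C.

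Over all 104 members that were lower in SW1736, the median level was 5.83 TPM in the vehicle library and 1.34 TPM in the treated one, a median ratio of 4.20. In 8505C the same genes had medians of 3.85 and 3.58 TPM, and their folds there ran from -0.42 to 0.73 with a median of -0.10. By the plain ratio of TPM, 62 members were at least 4-fold lower in SW1736, against 4 on the log2(TPM + 1) scale. The share of all genes past 4-fold was not computed on either scale, so these counts have no background beside them. Low levels limit these ratios: the mean read depth per base was under 1 in 32 members in the treated SW1736 library and in 10 in its vehicle library.

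**Figure D2:**
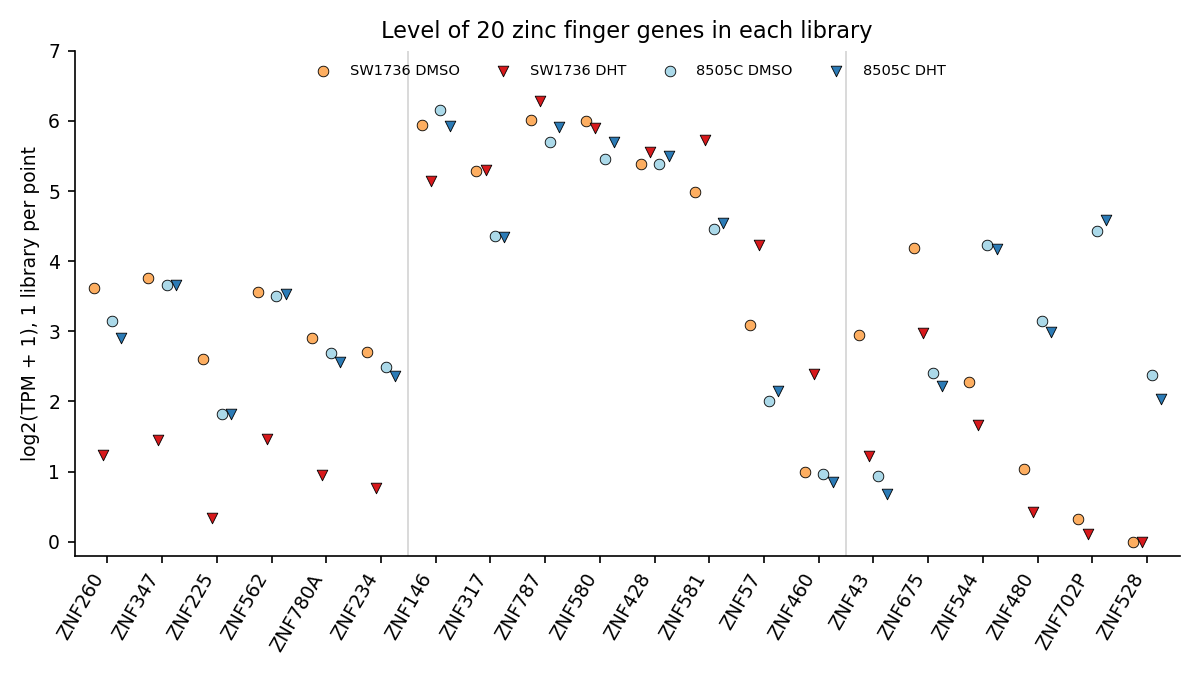
Levels of 20 members as log2(TPM + 1) (vertical), with 1 point per library: circles for DMSO and triangles for dihydrotanshinone (DHT), orange and red for SW1736, light and dark blue for 8505C. The treated SW1736 point of ZNF260, 1.35 TPM, lies below the other 3, which run from 6.51 to 11.3 TPM; ZNF460 and ZNF528 were added after their values were seen.

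The most abundant members behaved differently in SW1736. ZNF787, a protein of 7 fingers without KRAB, was at 63.4 and 76.9 TPM in SW1736 and at 50.9 and 59.2 TPM in 8505C. ZNF580 was at 62.8 and 58.8 TPM in SW1736 and its neighbour ZNF581 at 30.7 and 52.0 TPM, a fold of 0.74. In 8505C they were at 42.7 and 50.8 TPM and at 20.9 and 22.4 TPM. None of these 3 genes was lower past the fold used. ZNF428, which overlaps SRRM5, was at 40.8 and 46.1 TPM, ZNF358 at 46.0 and 50.5 TPM, ZNF574 at 31.5 and 37.7 TPM and ZNF317 at 38.0 and 38.4 TPM in SW1736. ZNF146, a finger-only protein that overlaps ZNF565, had the lowest SW1736 fold among the 8 most abundant members, at 60.6 and 34.3 TPM in SW1736 and 70.6 and 59.9 TPM in 8505C, a fold of -0.80 that missed the threshold. By abundance, 17 of 45 members with a mean of 1 to 2 TPM were lower, 53 of 75 from 2 to 5 TPM, 27 of 54 from 5 to 10 TPM and 7 of 29 above that. Among all genes between 1 and 10 TPM on average, 19.2% were lower.

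Few members were higher. ZNF57, a KRAB protein of 13 fingers near the end of the short arm, was at 7.52 and 17.8 TPM in SW1736 and at 3.02 and 3.45 TPM in 8505C, a fold of 1.14 against 0.14. ZNF460, named after its values were seen because its mean is under 2 TPM, was at 0.988 and 4.24 TPM in SW1736 and at 0.952 and 0.811 TPM in 8505C, and had the highest SW1736 fold, 1.40. In both genes the treated SW1736 library lies above the other 3. Below the threshold, ZNF844 was at 6.55 and 10.4 TPM in SW1736, ZNF653, which overlaps ECSIT, at 7.74 and 11.5 TPM, and ZNF296 at 17.4 and 23.6 TPM. The 16 members with any higher value in SW1736 compare with 183 with any lower value, and 4 were listed at 0 in both SW1736 libraries. Most genes were lower by some amount: of all 11706 protein-coding genes, 9113 had a lower and 2435 a higher value.

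Members with and without the KRAB pattern differed in their medians, and so did their base composition. Of the 169 with the pattern, 94 were lower and 2 higher in SW1736, with a median fold of -1.13; of the 34 without it, 10 were lower and none higher, with a median of -0.34. The summed TPM of the KRAB group was 1050 and 466 in SW1736 and 754 and 704 in 8505C, and that of the others was 658 and 574 in SW1736 and 495 and 517 in 8505C. The median GC content of the mRNA was 42.0% in the KRAB group and 60.2% in the others. Of the 14 members without KRAB whose mRNA had less than 50% GC, 10 were lower, with a median of -1.32, and of the 20 with at least 50% GC none was, with a median of 0.03. ZNF260 belongs to the former and ZNF787 to the latter. The pattern was sought in annotated proteins, so a member with no annotated protein counts as without KRAB. The 14 therefore include pseudogenes such as ZNF702P and are not all proteins that lack the domain. The 162 KRAB members under 50% GC had a median of -1.15, and the 7 at or above it a median of -0.79.

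GC content moved with the folds of the whole transcriptome as well. Of all protein-coding genes under 50% GC 22.1% were lower in SW1736, with a median of -0.58, and of those at or above it 8.58%, with a median of -0.25. Among members under 50% GC 58.5% were lower, with a median of -1.16. Across the members, Spearman's rho of the SW1736 fold with mRNA GC was 0.35 over all 203, 0.16 within the KRAB group and 0.64 within the others, and it was 0.31 over all genes; neighbouring members share sequence, and all points share the same 2 libraries. With mRNA length rho was -0.24 in the members and -0.42 over all genes, and with the number of fingers it was -0.22. The part of base composition and length in the lower values was not tested.

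**Figure D3:**
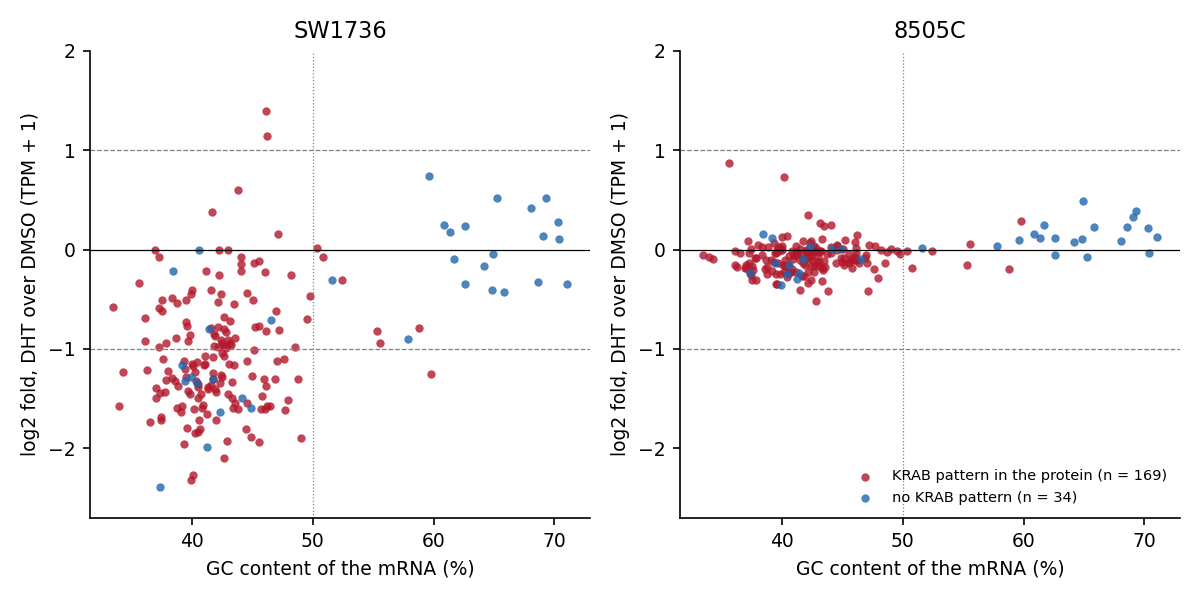
GC content of the mRNA in percent (horizontal) against the log2 fold of TPM + 1 with dihydrotanshinone (vertical) in SW1736 and 8505C, 1 point per member, red with the KRAB pattern and blue without; dashed lines mark 2-fold and the dotted line 50% GC. In SW1736 the GC-rich members without KRAB lie around 0, with a median of 0.03, and most others lie below it, while in 8505C all lie between -0.52 and 0.87.

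Zinc finger genes on other chromosomes lay between the members and the rest. Of 213 such genes chosen by the same symbol rule and mean, 68 (31.9%) were lower in SW1736 and 4 higher, with a median fold of -0.76, and 35 of the 94 with the KRAB pattern were lower, with a median of -0.87. Of 665 other protein-coding genes on chromosome 19, 39 (5.86%) were lower and 25 higher, with a median of -0.13. Their median mRNA GC was 61.1%, against 42.3% in the members. The 27 of them under 50% GC had 4 lower (14.8%) and 0 higher, with a median of -0.38. These differences from the members were not tested, since the SW1736 contrast chose the class. The 665 genes exclude only symbols of the member rule, so zinc finger genes with other kinds of symbol were not removed from them.

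**Figure D4:**
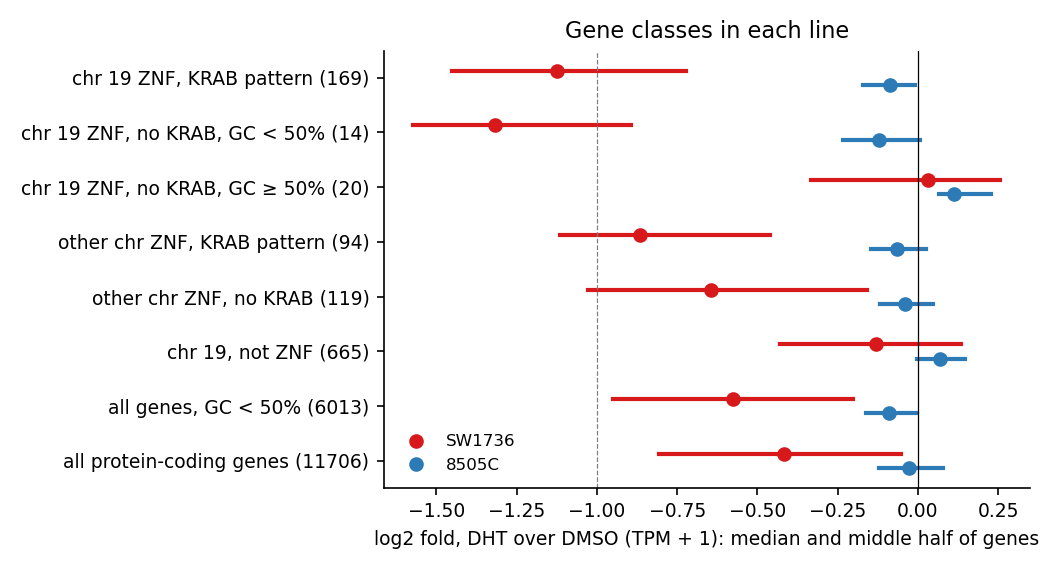
Log2 folds of TPM + 1 with dihydrotanshinone (horizontal) for classes of members and comparison genes, with the number of genes in brackets; points are medians, bars span the quartiles, SW1736 is red and 8505C blue. In SW1736 the medians of the member classes run from -1.32 for the AT-rich members without KRAB to 0.03 for the GC-rich ones, and in 8505C from -0.12 to 0.11. The chromosome 19 class marked as not ZNF lacks only symbols of the member rule.

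Along the chromosome, zinc finger genes with less than 1 Mb between them formed 16 groups, of which 14 held members. Lower members were found in 10 of these 14 groups. The other protein-coding genes given beside them are all those without a symbol of the member rule, so some may be zinc finger genes. The group at 51.57 to 53.58 Mb had 26 of 37 members lower (70.3%) and 36 below 0, with a median of -1.17; both other protein-coding genes there were lower too, with a median of -1.61. The group at 19.67 to 24.13 Mb, beside the centromere and including ZNF91 and ZNF43, held 24 members, all with the KRAB pattern. Of these, 14 were lower and 24 were below 0, with a median of -1.18. The 1 other gene there had a fold of -6.98 in SW1736 and of -5.90 in 8505C, where the median of the 24 members was -0.13. At 36.18 to 37.78 Mb, where ZNF260 lies, 12 of 21 members were lower, and 1 of 3 other genes was, with a median of -0.72. The lower values were thus spread over the length of the chromosome rather than lying in a single group.

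Mixed groups held both kinds of gene. At 43.53 to 45.08 Mb, where ZNF225 and ZNF234 lie, 13 of 20 members were lower; 13 of the 16 under 50% GC were, with a median of -1.56, and none of the 4 GC-rich members was, with a median of 0.30. The 18 other protein-coding genes inside that span had none lower and 5 higher, with a median of 0.16. At 7.07 to 9.77 Mb 7 of 12 members were lower, and of the 25 other genes there 1 was, with a median of 0.02. The terminal group at 55.48 to 58.49 Mb was the most populous, with 50 members, 20 lower and 1 higher. It opens with ZNF628, ZNF579, ZNF524, ZNF865, ZNF784, ZNF580, ZNF581, ZNF787 and ZNF444, all GC-rich and without KRAB, and none of these differed by 2-fold; of its 34 members under 50% GC 19 were lower. The group at 11.48 to 12.63 Mb had 7 of 24 lower (29.2%), with a median of -0.79, and the 4 members at 2.82 to 2.94 Mb, ZNF57 among them, had none lower.

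**Figure D5:**
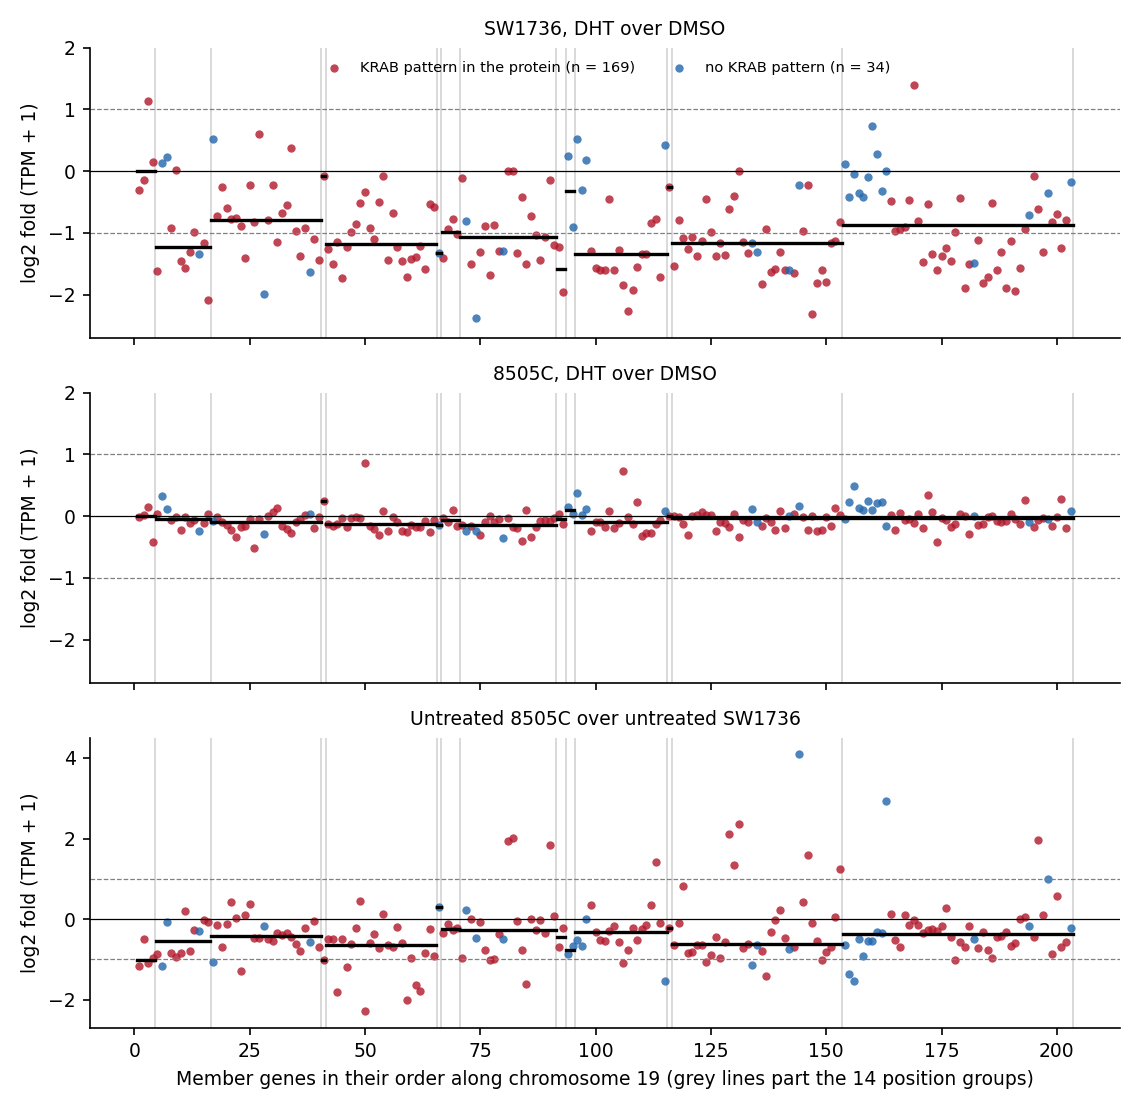
Members in their order along chromosome 19 (horizontal) against the log2 fold of TPM + 1 (vertical) with dihydrotanshinone in SW1736 and in 8505C, and between the vehicle libraries; red points hold the KRAB pattern, blue do not, grey lines part the 14 groups and black bars are group medians. SW1736 values lie mostly below 0, with a run near 0 at the start of the terminal group, 8505C values stay between -0.52 and 0.87, and the vehicle libraries differ most at ZNF702P, 4.10.

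In 8505C the members were close to equal between the treated and vehicle libraries. None was at least 2-fold lower or higher, where 0.171% of all genes were lower and 0.273% higher, and 178 of 203 were within 1.2-fold; with a pseudocount of 0.1, 2 were higher, against 0.777% of all genes. The median fold was -0.07 against -0.03 over all genes, and the summed level was 1249 TPM with vehicle and 1220 TPM with dihydrotanshinone. The KRAB members had a median of -0.09 and the others 0.06. Spearman's rho of the 8505C fold with mRNA GC was 0.31 across members and 0.47 over all genes. Across all members the folds of the 2 lines had a rho of 0.24; it was 0.07 within the KRAB group and 0.55 within the others.

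The members at the ends of the 8505C range differed by little in TPM. ZNF17 was at 5.27 and 3.68 TPM in 8505C, a fold of -0.42, and at 6.65 and 1.51 TPM in SW1736, a fold of -1.61. ZNF77, beside ZNF57, was at 3.65 and 2.47 TPM in 8505C and at 8.02 and 9.03 TPM in SW1736, so that its folds had opposite signs. ZNF585A, ZNF383, ZNF439 and ZNF227 had 8505C folds of -0.41, -0.35, -0.34 and -0.32, and SW1736 folds of -0.41, -0.72, -0.77 and -1.34. At the upper end, ZNF524 was at 7.23 and 10.5 TPM in 8505C and at 22.8 and 22.0 TPM in SW1736, folds of 0.48 and -0.05. ZNF358 had an 8505C fold of 0.32 and ZNF324B of 0.28, beside -1.25 for ZNF324B in SW1736. ZNF333, which overlaps ADGRE2, and ZNF580 both had 0.25. Only ZNF626 and ZNF224 were past 1.5-fold in 8505C, and both were higher. ZNF626, a KRAB gene of the group beside the centromere, was at 0.503 and 1.75 TPM in 8505C, a fold of 0.87 at a low level, and at 6.26 and 4.75 TPM in SW1736. The 8505C fold of ZNF626 depended on the scale. It was 0.54 on FPKM, which is under 1.5-fold. On read depth per base it was 0.18, below the members' median of 0.23 on that scale.

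Given vehicle alone, the shares of members past 2-fold between the lines were near or under those of all genes. Relative to SW1736, 24 members (11.8%) were at least 2-fold lower in 8505C and 12 (5.91%) higher, against 12.6% lower and 9.97% higher over all genes. The median difference was -0.47 in the members, -0.05 over all genes and -0.61 over the 665 other protein-coding genes of chromosome 19, of which 23.9% were lower. ZNF829, ZNF568, ZNF528 and ZNF542P were listed at 0 in both SW1736 libraries, and in 8505C were at 2.81 and 2.75, 3.07 and 2.58, 4.17 and 3.10, and 6.64 and 5.87 TPM. No fold is given against a value of 0; these 4 passed the cut on level only through 8505C, and without them 8 of 199 members were higher. ZNF829 overlaps ZNF345. ZNF702P, a pseudogene, was at 0.253 and 0.0760 TPM in SW1736 and at 20.5 and 23.0 TPM in 8505C, a difference between vehicle libraries of 4.10 on the log2 scale. ZNF480 was at 1.05 and 0.342 TPM against 7.89 and 6.91 TPM, ZNF544 at 3.85 and 2.15 TPM against 17.8 and 17.1 TPM, and ZNF229 at 0.961 and 0.150 TPM against 4.26 and 3.83 TPM. These 4 genes were higher in each 8505C library than in either SW1736 library. ZNF702P and ZNF229, like ZNF607, ZNF415 and ZNF880, were under 1 TPM in both SW1736 libraries, and the 2 SW1736 values of ZNF480 average under 1 TPM. These genes too passed the cut only through 8505C, so their higher levels there follow in part from the cut. The cut acts the other way as well. Among the members counted as lower in vehicle 8505C, ZNF43, ZNF585B, ZNF554 and ZNF850 were under 1 TPM in both 8505C libraries. They passed the cut only through SW1736. ZNF702P and ZNF480 lie in the group at 51.57 to 53.58 Mb.

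In the KRAB group beside the centromere 6 of 24 members were lower in vehicle 8505C and none higher, with a median difference of -0.63. Of the 665 other protein-coding genes of chromosome 19, 23.9% were lower, with a median of -0.61, so the group lay near the rest of the chromosome. Over all genes 12.6% were lower. ZNF91, a primate gene known for repressing SVA retrotransposons, was at 8.06 and 2.44 TPM in SW1736 and at 1.93 and 1.58 TPM in 8505C. ZNF93, known for repressing LINE-1 elements, was at 10.7 and 3.99 TPM in SW1736 and at 4.16 and 3.59 TPM in 8505C. In both genes the treated SW1736 level lies near the 8505C levels. ZNF675 was at 17.3 and 6.88 TPM in SW1736 against 4.28 and 3.68 TPM, ZNF506 at 11.9 and 4.82 TPM against 2.71 and 2.40 TPM, and ZNF43, listed at 2 loci, at 6.68 and 1.34 TPM against 0.913 and 0.601 TPM. Both SW1736 values lie above both 8505C values in each of these 3 genes. For ZNF43 this follows in part from the cut on level, which it passed only through SW1736. The same vehicle libraries enter this comparison and those with dihydrotanshinone.

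The co-repressor machinery that KRAB proteins recruit was described from a list of 40 genes in the tables, 38 of them past the cut on level. In SW1736 9 were lower (23.7%, against 15.6% of all genes) and 1 higher (2.63% against 2.78%), with a median of -0.65 against -0.42. In 8505C none was lower or higher, against 0.171% and 0.273% of all genes, with a median of -0.04 against -0.03. TRIM28, the protein that binds KRAB domains and whose gene also lies on chromosome 19, was at 524 and 337 TPM in SW1736 and at 377 and 376 TPM in 8505C, a SW1736 fold of -0.64. SETDB1, which methylates histone H3 at lysine 9, was at 13.9 and 9.66 TPM in SW1736 and at 15.6 and 13.9 TPM in 8505C. The 9 lower genes were SUV39H2 (-1.68) and UHRF1 (-1.08), which act in histone and DNA methylation, the heterochromatin protein CBX5 (-1.18), the SETDB1 partner ATF7IP (-1.02), FAM208A (-1.42) of the HUSH complex, and the chromatin remodellers ATRX (-1.68), SMARCAD1 (-1.52), CHD4 (-1.19) and CHD3 (-1.03). RLF, a zinc finger protein, was the gene that was higher, at 12.2 and 36.4 TPM.

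Of the members nearest the cut on level, ZNF497 (mean 1.00 TPM) and ZNF461 (1.01 TPM) were inside, and ZNF818P (0.992 TPM) and ZNF549 (0.979 TPM) outside. The sequenced depth implied by the tables ran from 3.26 to 4.14 Gb, but the median read depth per base over the members was 8.88 and 2.98 in SW1736 and 5.15 and 6.45 in 8505C. Summed FPKM was highest in the treated SW1736 library, at 511866 against 437144 to 444082 in the others. As for identity, the keratins KRT7, KRT8 and KRT18 were abundant in every library and TG and TSHR were at or near 0. PAX8 was at 87.1 and 117 TPM in SW1736 and under 1 TPM in 8505C, and in 8505C NKX2-1 was at 69.8 and 174 TPM, beside 0 in both SW1736 libraries. FOXE1 was at 60.6 and 22.3 TPM in SW1736 and at or near 0 in 8505C. Of markers of other cells, PTPRC, CD3E, PECAM1 and VWF were near 0 in every library, CD68 ran from 13.3 to 65.3 TPM, and CDH5 was listed at 0 in SW1736 and at 128 and 147 TPM in 8505C. In bulk libraries fewer cells of a type and less RNA per cell cannot be told apart.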

How the data were processed

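mRNA libraries of the 4 groups were made with the Universal Plus mRNA-Seq kit from RNeasy-extracted RNA, per the labels' protocols. The submitters' processing notes name bcl2fastq 2.20, StringTie and hg38; no aligner, annotation or strand setting is given in the sources used here. Deposited tables give TPM, FPKM and coverage (read depth per base) per gene, as the authors' StringTie run wrote them; no read counts were used. TPM was summed per gene symbol, and differences of log2(TPM + 1) were taken, with 2-fold as the threshold. The counting step was run on simulated folds without noise and without a pseudocount, and returned the folds put in. That run checks the code only, not the log2(TPM + 1) scale or the spread between libraries. With 1 library per group no p-value was computed, so all counts are descriptions, and the depth behind each gene limits them.

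The members and lists were chosen with earlier results of these data known. Biotypes, mRNA length, GC content, finger, KRAB and SCAN patterns came from GENCODE 29, with the principal transcript of each gene, and promoters from RefSeq GRCh38.p14; a finger was read as 2 cysteines, 12 residues and 2 histidines spaced 3 to 5 apart. Comparison genes were 11706 protein-coding genes past the same cut of 1 TPM, 11349 of them with a transcript. Named were the members with the 8 highest means and, among those with a mean of at least 2 TPM, the 8 lowest and 6 highest SW1736 folds, the 6 lowest and 6 highest 8505C folds, the 5 highest and 5 lowest differences between vehicle libraries, and the members nearest the cut; other named members were chosen after their values were seen. Alternatives were other pseudocounts, filters, FPKM, coverage, centring, rescaling and subsets of members. Python 3.11.15 with pandas 2.3.3 and numpy 2.4.6 was used.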

Additional observations from a re-analysis of the deposited data

Results flagged for a closer look

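ZNF224, a KRAB protein of 18 fingers, differed by at least 1.5-fold in opposite directions in the 2 lines. It was at 3.75 and 0.318 TPM in SW1736 (vehicle, then dihydrotanshinone), a log2 fold of -1.85, and at 1.22 and 2.69 TPM in 8505C, a fold of 0.73. Whether the lines differ here was not tested, since each group is 1 library. ZNF224 overlaps LOC100379224.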

How the results depend on the processing

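No paired analysis was possible because each group is 1 library. In SW1736 the members' median stayed below 0, and below that of all genes, in all alternatives run; the counts moved with the scale. With a pseudocount of 0.1 there were 137 lower members in SW1736, the median was -1.43, its difference from all genes -0.97, 2 members were higher in 8505C and 38 were lower in vehicle 8505C than in SW1736. With a pseudocount of 5 there were 14 lower and 0 higher members in SW1736, a median of -0.50 and a difference of -0.18, and between lines 4 higher, 7 lower and a median of -0.26. With a mean of at least 5 TPM (83 members) there were 34 lower and 1 higher in SW1736, a median of -0.92 and a difference of -0.49, and between lines 3 higher and 11 lower. Without a filter the SW1736 median was -0.92. On FPKM there were 49 lower in SW1736, a median of -0.69 and a difference of -0.49, and between lines 13 lower and a median of -0.36. Centring on the median gene, which shifts SW1736 folds by 0.43, gave 51 lower, 4 higher and a median of -0.64. On coverage, added after seeing the data and not corrected for library size, the SW1736 median was -0.97 and its difference -0.81, in 8505C 1 was higher and the median was 0.23, and between lines 45 were lower and the median was -0.65. Over members detected in all libraries 8 rather than 12 were higher in vehicle 8505C. The other recomputed counts stayed within 1.5-fold and the other medians within 0.1 of the main value.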
